A study of Mus musculus with 37 samples.

Results

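Morphine was compared with saline in adolescent mice that drank plain water. The 5 libraries of morphine-treated adolescents and the 5 libraries of saline-treated adolescents were chosen by their group labels, and make up 10 of the 37 libraries in the series. All mice were wild-type C57BL/6J males. Treatment of the adolescents began at postnatal day 25, and each mouse received subcutaneous morphine at 15 mg/kg or saline over 5 days. The other groups of the series were adults, whose treatment began at postnatal day 55, and mice of both ages that took antibiotics by mouth, which are not named in the sources used here. The sample labels give brain as the tissue and all cells as the cell type, and the series title places the tissue in the medial prefrontal cortex. Polyadenylated RNA was sequenced, with a library total of 12287497 to 18960391 counts in the morphine group and 10630727 to 27898977 counts in the saline group. The labels number the samples and do not state how they relate to animals, so p-values measure spread between samples. That spread was estimated within groups over all 37 libraries, not from these 10 alone.

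Morphine acts on the mu opioid receptor, the product of Oprm1, which couples to inhibitory G proteins, lowers cyclic AMP and opens potassium channels. The medial prefrontal cortex takes part in the control of reward seeking and is still maturing in adolescence, when genes of young neurons decline. Several genes below belong to the circadian clock. In that feedback loop Clock and Arntl activate the Per and Cry genes through E-box sequences, the PER and CRY proteins repress that activation, and the factors Dbp, Hlf and Tef pass the rhythm on to further genes.

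Markers of cortical excitatory neurons were abundant in all 10 libraries, with a summed level over 10 genes of 5480 to 6690 CPM (counts scaled to 1000000 per library) in the morphine libraries and 4160 to 7130 CPM in the saline libraries. Saline replicate 1 stood apart from the rest and held the 4160. The 14 striatal neuron genes summed to 492 to 532 CPM in the morphine libraries, against 2700 CPM in saline replicate 1 and 442 to 509 CPM in the other saline libraries. The 10 genes of mature oligodendrocytes, the myelin-forming cells, summed to 2000 to 6480 CPM in the morphine libraries, against 20800 CPM in saline replicate 1 and 1270 to 3030 CPM in the other saline libraries. Morphine replicate 5 held the 6480 and the largest sum of choroid plexus genes, 18.9 CPM, with at most 3.81 CPM elsewhere among the 10. Over 12544 genes, the median correlation with the other libraries of the group was 0.987 for morphine replicate 5, 0.961 for saline replicate 1 and 0.990 to 0.994 for the others. Pancreatic islet genes, among them those for insulin and glucagon, were found in morphine replicates 3 and 5 and in saline replicate 5, at sums of 33.0, 40.7 and 38.5 CPM, with at most 0.652 CPM elsewhere. In pieces of tissue, fewer cells of a type and less RNA per cell cannot be told apart. Results are given with saline replicate 1, and for many genes and lists also without it. Where no fit without it is mentioned, that library was included.

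Of 19348 genes tested, 68 passed an adjusted p of 0.05 in edgeR's quasi-likelihood test, which is 0.351% of them. Morphine libraries were higher for 35 genes (0.181%) and lower for 33 genes (0.171%), and 2114 genes had an unadjusted p under 0.05. Of the 35, 21 had every morphine library above every saline library, as did 0.693% of all genes, and 16 of the 33 had every morphine library below, as did 0.708% of all genes. The 35 higher genes had log2 fold changes, morphine over saline, of 0.22 to 0.84 with a median of 0.42, and 32 of them changed by less than 1.5-fold. The 33 lower genes had log2 fold changes of -3.55 to -0.26 with a median of -0.61. Of the 11 lower genes beyond 2-fold, 10 had their highest level in saline replicate 1, as did 21 of the 33 lower genes and 24.7% of all genes. The same library was the lowest of all for 18 of the 35 higher genes, against 21% of all genes. Genes chosen by this contrast are likely to have a saline library at that extreme, so these counts are a description. When saline replicate 1 was left out, 24 of 19259 genes passed (0.125%), 11 higher (0.0571%) and 13 lower (0.0675%). These included 15 of the 68, and all 68 kept their sign in that fit. The 68 were chosen with the same remaining libraries, so kept signs were likely from the start. The 10 higher genes among the 15 were Mthfd1l, Per2, Per1, Cry1, Hlf, Dbp, Btbd8, Luzp1, Rbm3 and Sphk2, and the 5 lower genes were St8sia2, Slc30a1, Kctd4, Gnal and Zfp580. Sphk2 and Zfp580 were named after their values were seen.

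**Figure D1:**
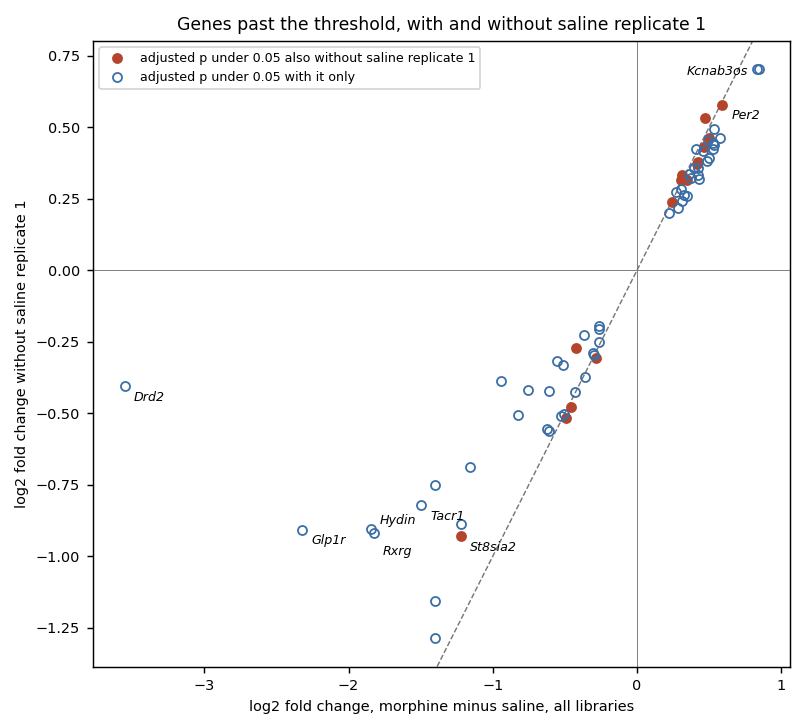
Each point is 1 of the 68 genes past the threshold, with its log2 fold change, morphine over saline, from all libraries on the horizontal axis and from the fit without saline replicate 1 on the vertical axis. The dashed line marks equal values. Higher genes lie near the line, while Drd2, Glp1r, Hydin, Rxrg and Tacr1 lie far above it, with values nearer 0 without that library.

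The number of genes past the threshold varied with single libraries. Without morphine replicate 3, 4 or 5 there were 3, 11 or 8 genes. Leaving out saline replicate 1, 2 or 3 gave 24, 42 or 29 genes, and leaving out saline replicate 4 or 5 gave 197 or 239 genes. Morphine replicate 5 was the highest of the 10 libraries for 24 of the 35 higher genes, against 13.5% of all genes, and the lowest for 18 of the 33 lower genes, against 14.2% of all genes. The genes were chosen by this contrast, which makes a morphine library likely at that extreme. The shares of all genes are therefore not a like baseline. Saline replicates 4 and 5 were the highest pair of saline libraries for 20 of the 35 higher genes, against 11.2% of all genes, and the lowest pair for 20 of the 33 lower genes, against 11.4% of all genes. Mthfd1l, Per2 and Hlf were the only genes to pass in each of the 10 fits that left out 1 of these libraries. The count also varied with the method, at 22 genes with DESeq2, 11 with limma-voom and 1 with edgeR fitted to the 10 libraries alone.

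Genes of the repressing arm of the clock were among the higher transcripts with the smallest p. Of 10 clock repressors tested, 5 rose, 0 fell and 5 did not pass, while 0.181% of all genes tested rose. The list, chosen with earlier results of these data known, had a median log2 fold change of 0.38, against -0.01 over all genes tested. Per2 encodes a PERIOD protein of the repressing complex. It was at 59.5, 49.8, 58.5, 62.2 and 64.9 CPM in morphine replicates 1 to 5, against 37.8, 36.6, 42.4, 42.3 and 36.5 CPM in saline replicates 1 to 5. Every morphine library was above every saline library. The log2 fold change was 0.59 ± 0.08 (SE, edgeR adjusted p = 0.000121), and 0.58 without saline replicate 1 (adjusted p = 0.00141).

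Per1, a second PERIOD gene that also responds to signals from outside the clock, was at 136, 126, 149.8, 149 and 135 CPM in the 5 morphine libraries and at 91.3, 102, 89.4, 119.8 and 102 CPM in the 5 saline libraries. The groups did not overlap, and saline replicate 4 came nearest to the morphine libraries. Its log2 fold change was 0.47 ± 0.08 (SE, edgeR adjusted p = 0.00819), and 0.43 without saline replicate 1 (adjusted p = 0.0382). Cry1, a cryptochrome of the same repressing complex, was at 20.1, 16.8, 21.6, 19.7 and 20.8 CPM with morphine and at 16.2, 12.8, 14.4, 14.7 and 12.7 CPM with saline. Morphine replicate 2 and saline replicate 1 lay close together, and the groups did not overlap. The Cry1 log2 fold change of 0.47 ± 0.09 (SE, edgeR adjusted p = 0.0147) was 0.53 without saline replicate 1 (adjusted p = 0.00747).

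Per3, the third PERIOD gene, and Ciart, which represses Clock and Arntl activity, passed only with saline replicate 1 in the fit. Per3 averaged 56.5 ± 5.04 CPM with morphine and 43.9 ± 3.15 CPM with saline (SD, n = 5 each), for a difference on the log2 scale of 0.36 (edgeR adjusted p = 0.0249) that was 0.34 without that library (adjusted p = 0.0735). Ciart averaged 23.1 ± 2.58 CPM with morphine and 16.1 ± 2.57 CPM with saline, a log2 fold change of 0.53 (edgeR adjusted p = 0.0206) that was 0.44 without it (adjusted p = 0.0701). Neither gene's groups overlapped. Nr1d1, which encodes the repressor REV-ERB alpha, did not pass and had a log2 fold change of -0.16, and Cry2 did not pass with 0.15. Without saline replicate 1 the list held 3 higher genes and 0 lower, with a median of 0.31 against 0.00 over all genes.

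Of 4 clock output factors, the PAR bZIP factors Dbp and Hlf rose, 0 fell and 2 did not pass. The list median log2 fold change was 0.24, and 0.181% of all genes tested rose. Hlf was at 275, 279, 309, 294 and 361 CPM in the morphine libraries and at 201, 233, 196, 255 and 254 CPM in the saline libraries. All morphine libraries were above all saline libraries, with morphine replicate 5 the highest. On the log2 scale the change was 0.41 ± 0.07 (SE, edgeR adjusted p = 0.00749), and 0.37 without saline replicate 1 (adjusted p = 0.0245). Dbp was at 136, 132, 137, 145 and 133 CPM with morphine and at 113, 114, 107, 109 and 109 CPM with saline. The spread within each group was narrow and there was no overlap, for a log2 fold change of 0.31 ± 0.06 (SE, edgeR adjusted p = 0.0174) and 0.32 without saline replicate 1 (adjusted p = 0.0222). Tef, the remaining PAR bZIP factor, had a log2 fold change of 0.18 and an adjusted p of 0.0592, and Nfil3, a repressor acting on the same sites, had -0.16 with an adjusted p of 0.743 (edgeR). The same pair, Dbp and Hlf, passed without saline replicate 1.

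Of the 5 clock activators 0 passed in either direction, with a median log2 fold change of -0.03. Clock was at 81.8 ± 3.00 CPM with morphine and 83.7 ± 4.10 CPM with saline, and Arntl, which encodes BMAL1, was at 21.7 ± 2.31 CPM and 25.3 ± 1.81 CPM in the same order (SD, n = 5 each). Their log2 fold changes were -0.03 and -0.22. Per3, Tef and the other clock genes given beside the leading ones were named after their values were seen. The sources used here do not state the time of day at collection, so time of day and morphine cannot be told apart.

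**Figure D2:**
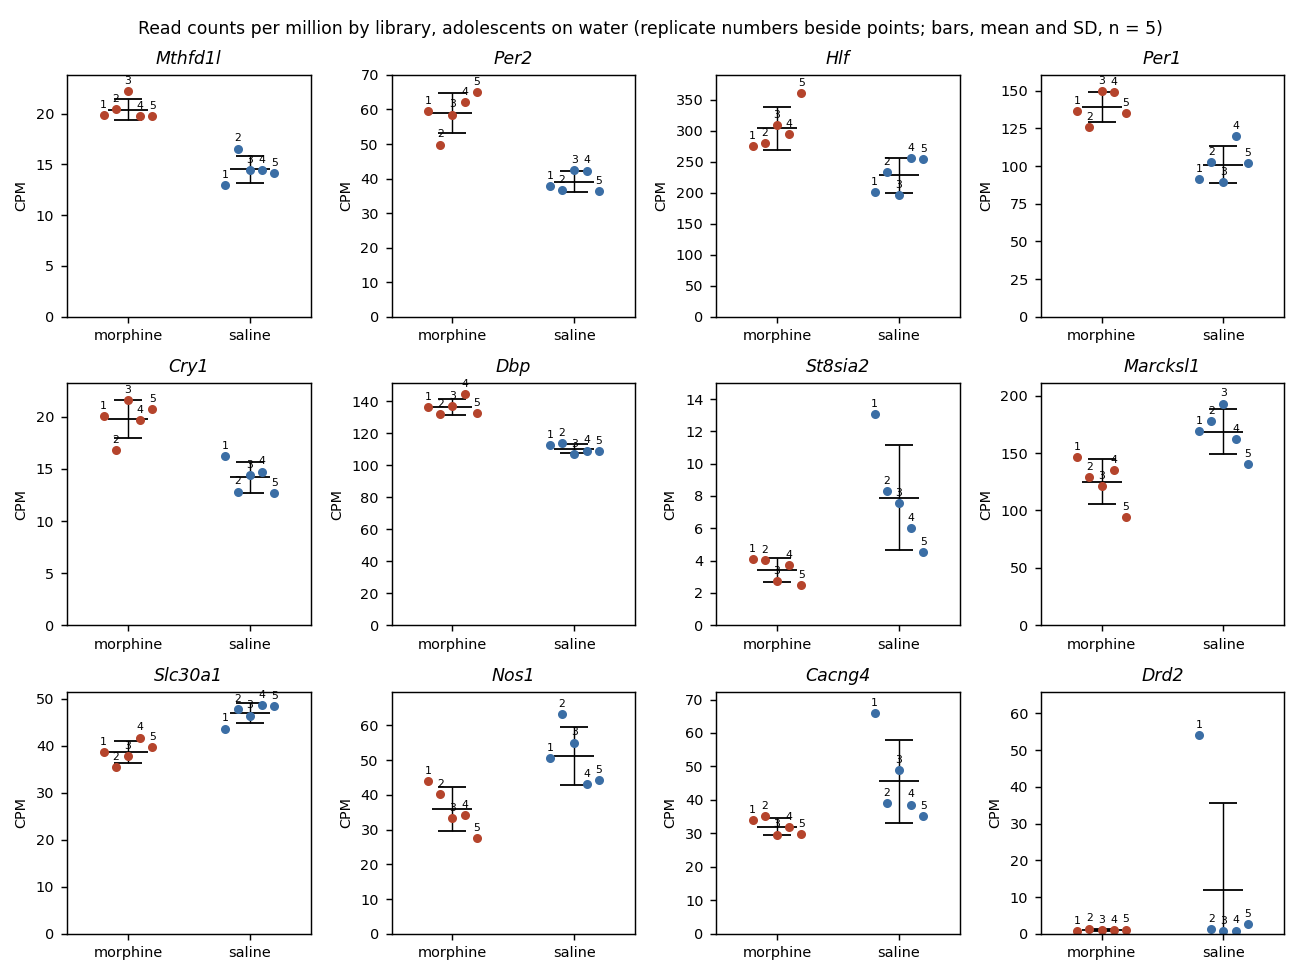
Level in CPM in each library for 12 genes of the comparison, with the replicate number beside each point, morphine libraries on the left and saline libraries on the right of each panel, and bars for the mean and SD (n = 5). Per2, Hlf, Per1, Cry1 and Dbp show no overlap between the groups, and the saline mean of Drd2 is set by replicate 1 at 54.1 CPM.

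The promoters of the clock genes that rose were read from RefSeq promoter windows on GRCm38.p6, each 300 bases long, from 250 bases before the listed start to 50 bases after it. Of the 7 clock genes that rose, 6 had a window, and Per2 had none. The search was for the E-box CACGTG, the cyclic AMP response element TGACGTCA and the D-box as TTATGTAA or TTACGTAA, on both strands, none of which contains another. Among 32851 windows, 7.15% held an E-box, 1.79% a cyclic AMP response element and 1.06% a D-box of either form. Capitals mark the motif in the sequences, which are shown 5′ to 3′ on the gene's strand because these are the genes that moved together. The E-box stood in the windows of Per1 (the first of 2 listed starts, chr11:69098699-69098998, plus strand), Cry1 (chr10:85185005-85185304, minus strand) and Ciart (chr3:95882179-95882478, minus strand), where it occurred 1, 1 and 3 times.
Per1: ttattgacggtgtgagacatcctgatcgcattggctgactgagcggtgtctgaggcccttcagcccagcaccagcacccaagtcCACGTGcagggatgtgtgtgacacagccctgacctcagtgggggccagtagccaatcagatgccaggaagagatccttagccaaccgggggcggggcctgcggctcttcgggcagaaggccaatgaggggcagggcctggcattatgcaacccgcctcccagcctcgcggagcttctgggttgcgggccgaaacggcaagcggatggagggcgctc
Cry1: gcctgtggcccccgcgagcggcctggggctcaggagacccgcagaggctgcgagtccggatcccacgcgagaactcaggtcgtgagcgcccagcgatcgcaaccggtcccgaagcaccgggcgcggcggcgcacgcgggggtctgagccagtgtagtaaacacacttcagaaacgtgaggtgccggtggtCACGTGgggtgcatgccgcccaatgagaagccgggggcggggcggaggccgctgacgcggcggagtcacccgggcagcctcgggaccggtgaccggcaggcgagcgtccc
Ciart: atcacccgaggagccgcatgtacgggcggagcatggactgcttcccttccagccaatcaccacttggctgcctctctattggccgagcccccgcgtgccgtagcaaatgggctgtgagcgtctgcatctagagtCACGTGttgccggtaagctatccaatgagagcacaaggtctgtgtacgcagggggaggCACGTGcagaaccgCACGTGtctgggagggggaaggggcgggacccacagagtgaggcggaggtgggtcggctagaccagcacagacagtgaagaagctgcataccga

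The window of Per3 (chr4:151044616-151044915, minus strand) held 2 D-boxes of the form TTATGTAA, and that of Hlf (chr11:90390868-90391167, minus strand) held 1 cyclic AMP response element.
Per3: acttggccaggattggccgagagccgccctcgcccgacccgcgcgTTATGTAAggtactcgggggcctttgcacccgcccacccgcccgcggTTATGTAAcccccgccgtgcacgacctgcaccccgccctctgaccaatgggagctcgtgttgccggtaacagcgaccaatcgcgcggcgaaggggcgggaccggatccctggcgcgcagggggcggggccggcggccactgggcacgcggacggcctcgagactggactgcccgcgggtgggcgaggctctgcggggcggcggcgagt
Hlf: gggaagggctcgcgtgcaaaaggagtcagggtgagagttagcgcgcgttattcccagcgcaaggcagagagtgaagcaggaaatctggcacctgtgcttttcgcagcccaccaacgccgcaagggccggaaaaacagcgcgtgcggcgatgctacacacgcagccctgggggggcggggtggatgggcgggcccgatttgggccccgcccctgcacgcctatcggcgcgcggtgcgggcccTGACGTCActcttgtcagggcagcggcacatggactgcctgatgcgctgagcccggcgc

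The Dbp window held none of these motifs, which says only that these letters are not in that window. Of the 10 clock genes with a window that did not pass, 2 held an E-box, namely Tef and Bhlhe41. A match describes the sequence and is not evidence that the site is used.

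Mthfd1l had the smallest p of all genes. It encodes the mitochondrial enzyme that releases formate from 10-formyltetrahydrofolate and so feeds one-carbon units to the cytosol. Its level was 19.8, 20.5, 22.2, 19.8 and 19.7 CPM in the morphine libraries, against 13.0, 16.6, 14.4, 14.4 and 14.1 CPM in the saline libraries. The lowest morphine library stood above the highest saline library, replicate 2. The log2 fold change was 0.50 ± 0.07 (SE, edgeR adjusted p = 0.000121), and 0.46 without saline replicate 1 (adjusted p = 0.00141). It was the only gene to pass of 24 folate, one-carbon and serine enzymes, whose median was -0.0034 and 0.08 without saline replicate 1. Mthfd1, the cytosolic partner enzyme, did not pass at 0.09 on the log2 scale (edgeR adjusted p = 0.768), nor did Shmt2, which makes mitochondrial one-carbon units from serine, at 0.06 (adjusted p = 0.846), or Mthfd2 at -0.16 (edgeR adjusted p = 0.716). These 3 were named after their values were seen.

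Slc24a2, a potassium-dependent sodium-calcium exchanger, was at 598, 642, 703, 678 and 774 CPM with morphine, against 432, 397, 373, 585 and 625 CPM with saline. The groups overlapped, since saline replicate 5 exceeded morphine replicate 1, and saline replicates 4 and 5 were well above saline replicates 1 to 3. Its log2 fold change was 0.49 ± 0.09 (SE, edgeR adjusted p = 0.0147), and 0.46 without saline replicate 1 (adjusted p = 0.0561). Scn1a, the sodium channel subunit of fast-spiking interneurons, was at 151, 153, 184, 183 and 208 CPM with morphine and at 88.1, 114, 106, 145 and 153 CPM with saline. Its highest saline libraries were again replicates 4 and 5, and replicate 5 overlapped the morphine group. The Scn1a log2 fold change was 0.54 (edgeR adjusted p = 0.0206), and 0.44 without saline replicate 1 (adjusted p = 0.0701).

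Kcnab3, an auxiliary subunit of voltage-gated potassium channels, was at 31.0, 36.2, 43.3, 40.0 and 71.4 CPM with morphine, against 16.7, 22.7, 20.8, 31.1 and 33.1 CPM with saline. Morphine replicate 5 stood well above the others, and saline replicates 4 and 5 reached the level of morphine replicate 1. The gene's log2 fold change was 0.83 (edgeR adjusted p = 0.0302), and 0.70 without saline replicate 1 (adjusted p = 0.104). The overlapping gene Kcnab3os had a log2 fold change of 0.84, and since no source used here states how strand was treated in counting, reads of this pair cannot be told apart. Nefh, the heavy neurofilament subunit of large axons, averaged 64.2 ± 13.1 CPM with morphine and 43.1 ± 9.97 CPM with saline (SD, n = 5 each), with a log2 fold change of 0.57 (edgeR adjusted p = 0.0436) and 0.46 without saline replicate 1 (adjusted p = 0.147). Pvalb, the marker of fast-spiking interneurons, was at 34.4, 42.7, 53.7, 43.5 and 68.1 CPM with morphine and 16.1, 30.7, 30.4, 46.1 and 48.5 CPM with saline, with saline replicates 4 and 5 inside the morphine range. It did not pass (log2 fold change 0.50, adjusted p = 0.295, edgeR). Of 6 interneuron markers 0 passed, and their sum was 897 to 957 CPM in the morphine libraries and 755 to 968 CPM in the saline libraries, lowest in saline replicate 1. The part of cell composition in these genes was not tested.

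Btbd8 and Luzp1 rose and passed without saline replicate 1 as well. Btbd8 was at 153, 151, 179.7, 167 and 168 CPM with morphine and at 119, 116, 115, 147 and 148 CPM with saline, with no overlap, for a log2 fold change of 0.34 (edgeR adjusted p = 0.00819). Luzp1, which encodes an actin- and centrosome-associated protein, was at 95.2, 98.8, 110.5, 107 and 139.7 CPM with morphine and 71.3, 80.3, 70.7, 93.8 and 94.0 CPM with saline. The gap between the groups was small, and morphine replicate 5 was the highest library, for a log2 fold change of 0.43 (edgeR adjusted p = 0.00995). Lgi2, Net1 and Jdp2 had log2 fold changes of 0.38, 0.46 and 0.53 and adjusted p of 0.018, 0.0206 and 0.0181 (edgeR), which became 0.0561, 0.0774 and 0.0561 without saline replicate 1. Jdp2 encodes a bZIP repressor that pairs with JUN proteins.

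Rbm3, an RNA-binding protein induced by cold, was at 82.2, 73.4, 85.0, 79.9 and 69.2 CPM with morphine, against 66.5, 56.5, 64.4, 61.2 and 64.7 CPM with saline. The groups did not overlap. Its log2 fold change was 0.31 ± 0.07 (SE, edgeR adjusted p = 0.0419), and 0.33 without saline replicate 1 (adjusted p = 0.0477), while an overlapping antisense gene leaves its reads uncertain in the same way. The second cold-inducible gene, Cirbp, had a log2 fold change of 0.02. Of 19 endoplasmic reticulum chaperone genes 1 rose, Herpud1, a component of the degradation pathway of that organelle, with a log2 fold change of 0.22 (edgeR adjusted p = 0.0419) and an adjusted p of 0.104 without saline replicate 1. With DESeq2's size factors in place of edgeR's, Herpud1 did not pass.

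St8sia2, Marcks and Marcksl1, genes of immature neurons, fell with morphine. Of 17 such genes tested 0 rose, 3 fell and 14 did not pass, while 0.171% of all genes tested fell. The list, chosen with earlier results of these data known, had a median log2 fold change of -0.29, against -0.01 over all genes. Without saline replicate 1 only St8sia2 passed and the median was -0.13. St8sia2 encodes the sialyltransferase that adds polysialic acid to the adhesion molecule NCAM during development. It was at 4.08, 4.01, 2.73, 3.72 and 2.48 CPM in the morphine libraries, against 13.1, 8.28, 7.54, 6.03 and 4.52 CPM in the saline libraries. Saline replicate 1 was the highest, but the other saline libraries were also above all morphine libraries. The log2 fold change was -1.22 ± 0.22 (SE, edgeR adjusted p = 0.00817), and -0.93 without saline replicate 1 (adjusted p = 0.0382).

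Marcksl1, which binds actin at the membrane of growing neurites, was at 146, 129, 121, 135 and 94.0 CPM with morphine and at 169, 178, 193, 162 and 141 CPM with saline. The overlap lay between morphine replicate 1 and saline replicate 5. The fitted log2 fold change was -0.43 (edgeR adjusted p = 0.033), and -0.43 without saline replicate 1 (adjusted p = 0.0811). Marcks, its close relative, was at 204, 213, 213, 215 and 200.5 CPM with morphine, against 296, 246, 248, 239 and 225 CPM with saline. The morphine libraries lay within a narrow range below all saline libraries, and the log2 fold change was -0.26 (edgeR adjusted p = 0.0281), or -0.19 without saline replicate 1 (adjusted p = 0.101). Dcx, the doublecortin gene of migrating neurons, was at 25.8 to 29.5 CPM with morphine, against 50.4 CPM in saline replicate 1 and 27.9 to 33.3 CPM in the other saline libraries, and did not pass (log2 fold change -0.29, adjusted p = 0.356, edgeR). Cd24a, a surface protein of young neurons, was likewise highest in saline replicate 1, at 28.5 CPM, and had a log2 fold change of -1.10 with it and -0.53 without it, passing in neither. Fabp7, Gadd45g and Dio3 lay outside the list and fell. Fabp7, a fatty acid binding protein of radial glia, averaged 13.3 ± 0.596 CPM with morphine and 20.4 ± 4.09 CPM with saline (SD, n = 5 each). Morphine over saline, Fabp7 changed by -0.62 on the log2 scale (edgeR adjusted p = 0.037). Gadd45g, a growth arrest and DNA damage gene active in neural progenitors, averaged 8.59 ± 0.725 CPM with morphine and 13.1 ± 1.23 CPM with saline, a log2 fold change of -0.61 (edgeR adjusted p = 0.037). Dio3, the enzyme that inactivates thyroid hormone, was at 0.242 to 0.970 CPM with morphine and at 0.762 to 2.41 CPM with saline, a log2 fold change of -1.40 (edgeR adjusted p = 0.0381). None of these 3 passed without saline replicate 1 (adjusted p = 0.104, 0.0962 and 0.104). Dcx, Cd24a, Fabp7, Gadd45g and Dio3 were named after their values were seen.

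Lower genes of synaptic signalling included Nos1 and Cacng4. Nos1, the neuronal nitric oxide synthase, was at 44.0, 40.2, 33.3, 34.3 and 27.5 CPM with morphine and at 50.5, 63.3, 55.0, 43.1 and 44.1 CPM with saline. Saline replicate 4 fell below morphine replicate 1, so the groups overlapped by that library alone. The log2 fold change was -0.50 ± 0.10 (SE, edgeR adjusted p = 0.0206), and -0.50 without saline replicate 1 (adjusted p = 0.0561). It was 1 of 14 genes of NMDA receptors and nitric oxide signalling to pass, with a list median of -0.02, and -0.11 without saline replicate 1. Cacng4, an auxiliary subunit of AMPA receptors, was at 33.9, 35.1, 29.6, 31.8 and 29.8 CPM with morphine and at 65.8, 39.1, 48.9, 38.6 and 35.1 CPM with saline. Saline replicates 1 and 3 were the highest, and saline replicate 5 met morphine replicate 2. Its log2 fold change of -0.51 (edgeR adjusted p = 0.0181) was -0.33 without saline replicate 1 (adjusted p = 0.0536), and none of the other 17 AMPA receptor genes tested passed.

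Gnal, the stimulatory G protein alpha subunit of the olfactory system and striatum, was at 152, 146, 137, 145 and 112 CPM with morphine and 259, 167, 183, 162 and 156 CPM with saline. Saline replicate 1 was far above the rest, yet no saline library reached the morphine range. The log2 fold change was -0.43 (edgeR adjusted p = 0.018), and -0.27 without that library (adjusted p = 0.0444). Slc30a1, the zinc exporter of the plasma membrane, was at 38.6, 35.5, 37.8, 41.7 and 39.7 CPM with morphine, against 43.6, 47.9, 46.4, 48.6 and 48.4 CPM with saline. Here saline replicate 1 was the lowest of its group, and the groups did not overlap. Its log2 fold change was -0.28 ± 0.06 (SE, edgeR adjusted p = 0.033), and -0.31 without saline replicate 1 (adjusted p = 0.0382). Kctd4 and Zfp580 were the remaining lower genes that passed in both fits. Kctd4 was at 18.1 ± 3.18 CPM with morphine and 25.6 ± 3.65 CPM with saline (SD, n = 5 each), with a log2 fold change of -0.49 (edgeR adjusted p = 0.0269). Zfp580 was at 14.0 ± 2.15 CPM with morphine and 19.2 ± 1.75 CPM with saline (SD, n = 5 each). The Zfp580 log2 fold change was -0.45 (edgeR adjusted p = 0.037), with an adjusted p of 0.0494 without saline replicate 1. Lpl, the lipoprotein lipase, Colgalt2, a collagen galactosyltransferase, and Ripor2 fell by 0.61, 0.53 and 0.26 on the log2 scale and had adjusted p of 0.0986, 0.0561 and 0.0872 in edgeR without saline replicate 1.

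The largest decreases rested on saline replicate 1. Drd2, the dopamine D2 receptor of striatal neurons, was at 0.707, 1.42, 1.08, 0.910 and 1.15 CPM in the morphine libraries and at 54.1, 1.25, 0.697, 0.882 and 2.62 CPM in the saline libraries. Only saline replicate 1 was high, and the other saline libraries overlapped the morphine libraries. Its log2 fold change of -3.55 (edgeR adjusted p = 0.0436) became -0.41 without that library (adjusted p = 0.724). Glp1r, the receptor of glucagon-like peptide 1, Rxrg, a retinoid receptor, Hydin, a protein of motile cilia, and Tacr1, the receptor of substance P, fell as well. The log2 fold changes of Glp1r, Rxrg and Hydin were -2.32, -1.82 and -1.84 with saline replicate 1 and -0.91, -0.92 and -0.91 without it. Tacr1 was at 0.248 to 1.27 CPM with morphine, against 5.44 CPM in saline replicate 1 and 1.05 to 2.03 CPM in the other saline libraries. None of these 4 passed without saline replicate 1 (edgeR adjusted p = 0.296, 0.264, 0.331 and 0.292). Of 13 tested striatal neuron genes 1 fell, Drd2, with a list median of -1.01 that was 0.0039 without that library. The 10 mature oligodendrocyte genes had a median of -0.81 and 0 passed, and the median was 0.69 without it, again with 0 past the threshold. Their sum was 6480 CPM in morphine replicate 5, against at most 3040 CPM in the other morphine libraries. The part of morphine replicate 5 in the 0.69 was not tested. Ependymal markers, a list of 6 genes added after seeing the data, summed to 6.40 to 7.56 CPM with morphine, against 47.9 CPM in saline replicate 1 and 6.12 to 7.53 CPM in the other saline libraries. Of the 4 tested, 0 passed, with a median of -0.68 that was 0.08 without saline replicate 1.

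**Figure D3:**
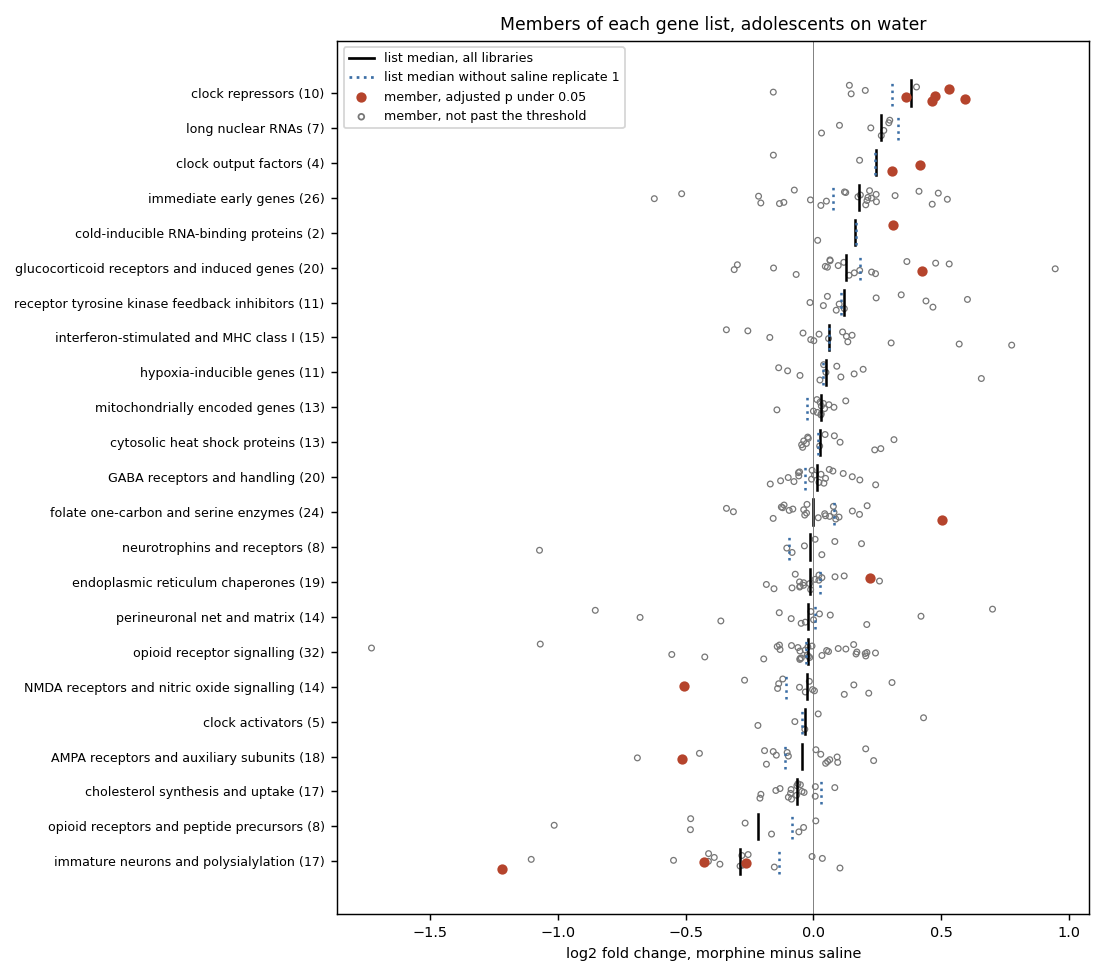
Log2 fold change, morphine over saline, of every tested member of 23 gene lists, with the number tested in brackets, filled points for members past the threshold, a solid line at the list median and a dotted line at the median without saline replicate 1. The clock repressors have a median of 0.38 with 5 members past the threshold, and the genes of immature neurons one of -0.29 with 3.

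Some genes did not pass with all libraries and passed when saline replicate 1 was left out. Arhgap33, Colq and Gh also passed without 1 or more of the other libraries. Serinc2 was at 4.51, 7.69, 6.47, 4.63 and 8.47 CPM with morphine and at 6.84, 2.98, 3.29, 4.02 and 2.90 CPM with saline. Its level in saline replicate 1 lay within the morphine range, and the log2 fold change was 0.63 with that library and 0.94 without it (edgeR adjusted p = 0.152 and 0.0213). Fjx1, Syn2, which encodes the vesicle protein synapsin II, Pcdh19, a protocadherin, Arhgap33 and Colq had log2 fold changes without it of -0.35, -0.27, -0.35, -0.31 and -1.27, with adjusted p of 0.0382 to 0.0496 (edgeR). Gh, the growth hormone gene of the pituitary, also passed then (log2 fold change -4.38, adjusted p = 0.0477, edgeR), and 153 of its counts were in saline replicate 3, with 0 to 5 counts in the morphine libraries and 0 to 18 in the other saline libraries.

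Genes of the drug's own pathway did not pass. Of 8 genes for opioid receptors and peptide precursors 0 passed, with a median log2 fold change of -0.22, and -0.09 without saline replicate 1. Oprm1 was at 3.53, 3.75, 3.81, 2.65 and 2.96 CPM with morphine, against 4.33, 4.62, 3.04, 2.94 and 3.95 CPM with saline. The groups overlapped, with a log2 fold change of -0.16 ± 0.16 (SE, edgeR adjusted p = 0.779). Penk, the enkephalin precursor, was at 33.1 to 48.3 CPM with morphine, 273 CPM in saline replicate 1 and 27.4 to 39.1 CPM in the other saline libraries, and its log2 fold change of -1.01 turned to 0.26 without that library, passing in neither. Of 32 genes of opioid receptor signalling, which cover inhibitory G proteins, adenylyl cyclases, potassium channels, arrestins and RGS proteins, 0 passed and the median was -0.02. Gnb4, a G protein beta subunit, had the smallest p of that list with a log2 fold change of -0.43 (edgeR adjusted p = 0.0701). Without saline replicate 1 the Gnb4 value was -0.28 (edgeR adjusted p = 0.228).

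Among 20 glucocorticoid receptor and glucocorticoid-induced genes, Zbtb16 rose, 0 fell and the list median was 0.13. Zbtb16, the zinc finger factor PLZF, was at 71.3, 60.7, 75.4, 72.7 and 77.1 CPM with morphine and at 40.4, 56.7, 56.7, 55.8 and 57.6 CPM with saline. Saline replicate 1 was well below the other saline libraries, and all saline libraries were below all morphine libraries. The log2 fold change was 0.42 (edgeR adjusted p = 0.0227), and 0.34 without saline replicate 1 (adjusted p = 0.0735). Fkbp5 and Sgk1, classical targets of the receptor, had log2 fold changes of 0.24 and 0.16 (edgeR adjusted p = 0.596 and 0.842). Of 26 immediate early genes 0 passed, with a median of 0.18 that was 0.07 without saline replicate 1. Fos was at 18.2, 25.1, 29.2, 23.8 and 38.1 CPM with morphine and at 14.7, 27.6, 14.2, 41.2 and 34.3 CPM with saline, with each group spanning most of the other's range (log2 fold change 0.03, adjusted p = 1, edgeR). The 6 microglia markers had a median of -0.18 and 0 passed. Cx3cr1, the microglial fractalkine receptor, had a log2 fold change of -0.17 (edgeR adjusted p = 0.275). The 20 genes of GABA receptors and handling, 13 of cytosolic heat shock proteins and 13 encoded by mitochondrial DNA had medians of 0.01, 0.02 and 0.03, and 0 of them passed. Without saline replicate 1 these medians were -0.03, 0.02 and -0.02, and the mitochondrial genes with a positive value were 1 of 13, against 11 of 13 with it.

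The remaining lists also held 0 genes past the threshold. The 7 long nuclear RNAs tested were all positive with a median log2 fold change of 0.27, and the 11 feedback inhibitors of receptor tyrosine kinases had a median of 0.12 with 10 of 11 positive. Without saline replicate 1 the medians were 0.33 and 0.11. Dusp5, of the second of these lists, had a log2 fold change of 0.60 (edgeR adjusted p = 0.0552), and 0.51 without saline replicate 1 (adjusted p = 0.161). Medians of the cell type lists were 0.02 for 10 cortical excitatory neuron genes, 0.11 for 6 interneuron genes and -0.15 for 6 astrocyte genes. They were -0.01 for 6 endothelial and pericyte genes and -0.23 for 4 genes of oligodendrocyte precursors and new oligodendrocytes. For 3 choroid plexus genes the median was -0.05, and for 4 islet genes 0.79. In the same order the medians were -0.02, 0.08, -0.07, -0.04, -0.02, 0.09 and 0.40 without saline replicate 1. Of these, the astrocyte sum was 1400 to 1550 CPM with morphine and 1500 to 1730 CPM with saline, and the microglia sum 289 to 351 CPM with morphine and 345 to 400 CPM with saline. The medians were -0.01 for 8 neurotrophin genes, -0.02 for 14 genes of the perineuronal net and matrix, -0.07 for 17 genes of cholesterol synthesis, 0.06 for 15 interferon and MHC class I genes and 0.05 for 11 hypoxia genes. Without saline replicate 1 these were -0.10, 0.0048, 0.03, 0.06 and 0.04 in that order.

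The 8 groups of the series were then set side by side. Of the 35 higher genes, the morphine group of adolescents on water had the highest mean of the 8 groups for 6, against 6.94% of all genes, and the saline group of adolescents on water had the lowest mean for 32, against 15.2% of all genes. Of the 33 lower genes, that morphine group had the lowest mean for 4, against 8.42% of all genes, and that saline group had the highest mean for 32, against 19.2% of all genes. With saline replicate 1 left out of the mean, the saline group was lowest for 31 of the 35 and highest for 30 of the 33. The genes were chosen by this contrast, which makes an extreme value in either of its groups likely, so these counts are a description.

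St8sia2 averaged 3.40 ± 0.747 CPM with morphine and 7.89 ± 3.24 CPM with saline in adolescents on water (SD, n = 5 each). The means were 3.40 ± 0.536 CPM with morphine (n = 5) and 4.39 ± 0.907 CPM with saline (n = 3) in adolescents on antibiotics, and 3.62 ± 1.14 CPM with morphine (n = 5) and 3.31 ± 1.06 CPM with saline (n = 3) in adults on water. The saline mean of adolescents on water stood above the other 5. Slc24a2 averaged 679 ± 66.2 CPM with morphine and 482 ± 115 CPM with saline in adolescents on water, 726 ± 36.2 CPM and 632 ± 43.2 CPM in the same order on antibiotics, and 674 ± 39.5 CPM and 716 ± 28.6 CPM in adults on water. For Nos1 the morphine and saline means were 35.8 ± 6.41 CPM and 51.2 ± 8.30 CPM in adolescents on water, 35.6 ± 3.04 CPM and 36.1 ± 2.53 CPM on antibiotics, and 42.0 ± 4.49 CPM and 37.4 ± 2.08 CPM in adults on water. In both genes the saline mean of adolescents on water was again apart from the other 5 given, low for Slc24a2 and high for Nos1. Without saline replicate 1 that mean was 6.59 CPM for St8sia2, 495 CPM for Slc24a2 and 51.4 CPM for Nos1. These genes were chosen by this contrast, so their means are a description.

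Whether the morphine effect on water differed between adolescents and adults was tested as an interaction. In edgeR 0 of 19348 genes passed (0%), with 1236 at an unadjusted p under 0.05, 0 in DESeq2 and 1 in limma-voom. Morphine alone gave 0 genes past the threshold in adults on water (0%). Mthfd1l averaged 20.4 ± 1.05 CPM with morphine and 14.5 ± 1.29 CPM with saline in adolescents (SD, n = 5 each), and 20.5 ± 0.878 CPM with morphine (SD, n = 5) and 15.6 ± 1.08 CPM with saline (SD, n = 3) in adults. The effect was 0.50 on the log2 scale in adolescents and 0.39 (SE 0.08) in adults, and the difference, adolescents minus adults, was 0.11 (SE 0.11, edgeR adjusted p = 0.948). For Per2 the log2 fold change was 0.59 in adolescents and 0.19 in adults, and the difference 0.40 (SE 0.13, edgeR adjusted p = 0.535). The difference was 0.35 (SE 0.11) for Hlf, -1.36 (SE 0.34) for St8sia2 and -0.67 (SE 0.16) for Nos1, with adjusted p of 0.535, 0.49 and 0.44 (edgeR). The morphine effect was positive in adults on water for 18 of the 35 genes that rose in adolescents, against 50.4% of all genes, and negative for 10 of the 33 that fell, against 49.6% of all genes. In adolescents on antibiotics it was positive for 26 of the 35 and negative for 25 of the 33, against 51.9% and 48.1% of all genes, and in adults on antibiotics it was so for 20 of each, against 49.6% and 50.4%.

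**Figure D4:**
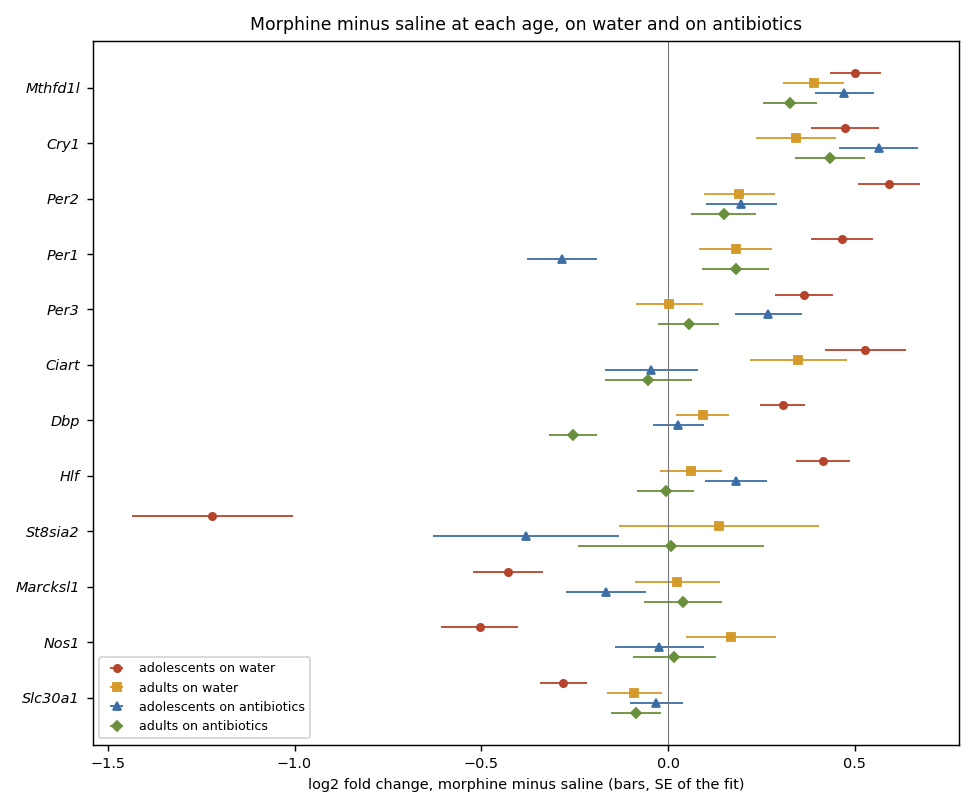
Log2 fold change, morphine over saline, with the SE of the fit, for 12 genes in adolescents on water, adults on water, adolescents on antibiotics and adults on antibiotics. Mthfd1l and Cry1 are positive in all 4, between 0.33 and 0.56, while Per1 is positive in 3 and -0.28 in adolescents on antibiotics.

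Genes that moved with morphine were also set against age in libraries that the comparison does not contain. Among saline-injected mice on antibiotics, with libraries over 1000000 counts, 29 of the 35 genes that rose with morphine were higher in adults than in adolescents, against 51.2% of all genes, and 25 of the 33 genes that fell were lower in adults, against 48.8% of all genes. Of these, 2 of the 35 passed as higher in adults, Zbtb16 and Cry1 (0.388% of all genes), 3 of the 33 passed as lower in adults, Marcksl1, Fabp7 and Zfp580 (0.999% of all genes), and Per1, among the 35, passed as lower in adults. Marcksl1 averaged 63.0 ± 7.79 CPM in adults and 142 ± 6.91 CPM in adolescents (SD, n = 5 and n = 3), a log2 fold change, adults over adolescents, of -1.17 (edgeR adjusted p = 6.38e-08). Zbtb16 averaged 89.8 ± 13.1 CPM in adults and 57.9 ± 2.22 CPM in adolescents, a log2 fold change of 0.63 (edgeR adjusted p = 0.00132). The genes were chosen for their change with morphine in other libraries, and no cause of this pattern was tested.

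Between adolescents on water and adolescents on antibiotics the morphine effect differed for 13 genes (0.0672%), all with a more positive effect on water, and 1199 genes had an unadjusted p under 0.05. Spry4, an inhibitor of receptor tyrosine kinase signalling, averaged 19.6 ± 2.42 CPM with morphine and 14.2 ± 2.98 CPM with saline on water (SD, n = 5 each), and 11.1 ± 0.775 CPM with morphine (SD, n = 5) and 18.3 ± 0.696 CPM with saline (SD, n = 3) on antibiotics. Another antibiotics and saline library, with 25165 counts, stayed in the fit and is left out of that mean. The difference between the effects was 1.20 on the log2 scale (SE 0.18, edgeR adjusted p = 0.00116). Stk40, a kinase-like protein, averaged 40.8 ± 2.69 CPM with morphine and 35.7 ± 4.63 CPM with saline on water, and 29.4 ± 2.35 CPM with morphine and 41.8 ± 1.19 CPM with saline on antibiotics, a difference of 0.70 (SE 0.11, edgeR adjusted p = 0.00215).

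Per1 was the only one of the 13 to pass for morphine on water. It averaged 139 ± 10.1 CPM with morphine and 101 ± 12.1 CPM with saline on water, and 115 ± 13.5 CPM with morphine and 140.5 ± 14.1 CPM with saline on antibiotics. Its difference was 0.75 (SE 0.13, edgeR adjusted p = 0.00477). Dusp5, a phosphatase of ERK kinases, Klf10, a zinc finger factor, and Nab2, a corepressor of EGR factors, had differences of 1.25, 1.09 and 0.60 (edgeR adjusted p = 0.00573, 0.00527 and 0.00574). Sik1, a salt-inducible kinase, Csrnp1, Midn, Ier5l, Dnajb5, Frmd6 and Gm16229 made up the rest, with adjusted p up to 0.0485 (edgeR), and were named after their values were seen. In adolescents on antibiotics 9 genes passed for morphine alone (0.0465%), 4 higher (0.0207%) and 5 lower (0.0258%), among them Spry4, Stk40, Klf10 and Nab2, each lower with morphine. Of the 68 genes, Mthfd1l, Cry1, Zbtb16 and Fabp7 also passed there in the same direction, at log2 fold changes of 0.47, 0.56, 0.50 and -0.92 (edgeR adjusted p = 0.00517, 0.0116, 0.0413 and 0.0113). Their differences between water and antibiotics were 0.03 (SE 0.10), -0.09 (SE 0.14), -0.08 (SE 0.13) and 0.30 (SE 0.22). The count of 13 was 7 without water morphine replicate 5, 8 without water saline replicate 3, 22 without water saline replicate 4, and 5 or 6 without antibiotics saline replicate 2 or 5. It was 14 without water saline replicate 1.

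**Figure D5:**
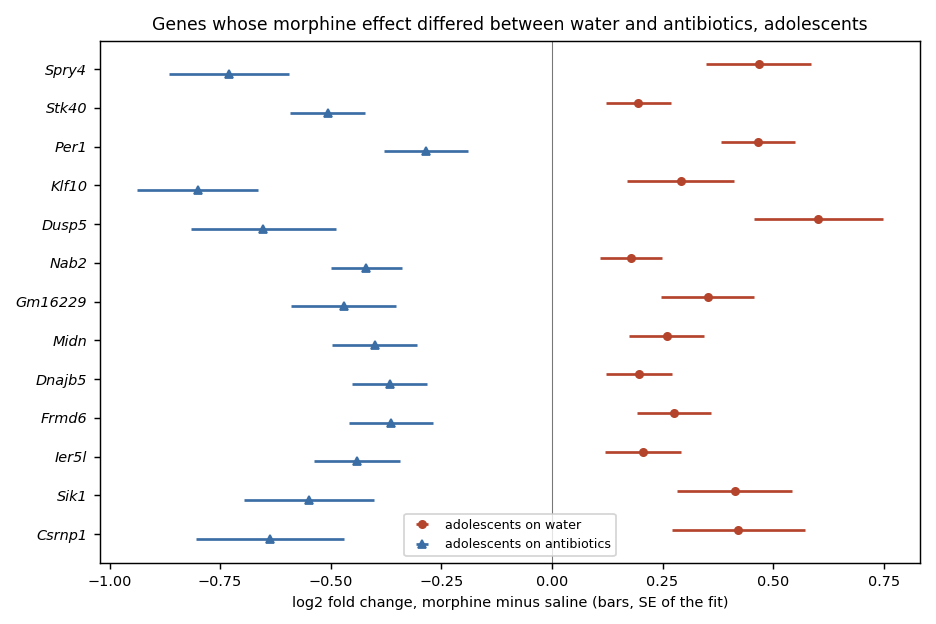
Log2 fold change, morphine over saline, with the SE of the fit, in adolescents on water and in adolescents on antibiotics for the 13 genes whose morphine effect differed between them. All 13 points are above 0 on water and below 0 on antibiotics.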

How the data were processed

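The deposited table holds whole-number read counts per gene and library. Per the submitters' processing notes, STAR 2.7.10a, DESeq2 and mm10 were used, and the column names carry the ending of the per-gene count output of STAR. The sources used here state neither the annotation release nor the strand setting. Symbols came from GENCODE M21 for 52073 of 56980 identifiers, and the 4907 without one held 3.86% of counts.

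All 37 libraries were fitted together in edgeR 4.0.16 (R 4.3.3) with a mean per group, TMM scaling, its filter on low counts and the robust quasi-likelihood test. P-values were adjusted by Benjamini-Hochberg over the 19348 genes tested, with 0.05 as threshold. A library of 25165 counts and one of 58764 counts in other groups stayed in the fit and are left out of means and SDs. Levels are counts scaled to 1000000 of the TMM-scaled total (CPM), not per length, and are compared only within a gene. No pair of the 10 libraries had more than 1.81% of equal counts over 10, so none was taken for a repeat deposit.

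Members, gene lists, named-gene rule and alternatives were chosen with earlier results of these data known. Named genes were, per direction, among passing genes of at least 1 CPM, the first 12 by p and the first 5 by size of change. To these were added genes passing every fit that left out 1 library, up to 6 per direction that passed without saline replicate 1 and not with all libraries, up to 4 passing members of each list (or the member of smallest p), up to 6 genes of each interaction and a fixed set with Fos, Oprm1, Mbp and Drd2. Alternatives were DESeq2 1.42.0, limma 3.58.1 (voom with sample weights), DESeq2 size factors, no filter, the compared groups alone, libraries over 1000000 counts with and without saline replicate 1, a replicate block and leaving out each library. The islet-read term and the ependymal list were added after seeing the data. Simulated data with 200 changed genes were used to test the fit.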

Additional observations from a re-analysis of the deposited data

Results flagged for a closer look

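Single libraries stood apart from the other 4 of their group by the ratio of the gap to the range. Chance alone gives this in about 1 in 20 groups when values are normally distributed, which was not checked for these genes. Values are in CPM.

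Morphine replicate 5 was high for the myelin genes Cnp at 376 CPM, with 148 to 197 CPM in the other morphine libraries, and Mbp at 2773 CPM, with 826 to 1296 CPM in the others. It was also high for Ttr, the choroid plexus transthyretin gene, at 15.9 CPM with 0.0828 to 0.444 CPM in the others, and for Hapln4, a link protein of perineuronal nets, at 171 CPM with 120.1 to 129.7 CPM in the others. Arhgap33 was low there at 158 CPM, with 210.4 to 223 CPM in the other morphine libraries.

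Saline replicate 1 was high for Cnp at 1150 CPM, with 115 to 199.6 CPM in the other saline libraries, and for Mbp at 8675 CPM, with 540 to 1277 CPM in the others. In that library Drd2 at 54.1 CPM, Penk at 273 CPM, Gnal at 259 CPM and Gnb4 at 54.6 CPM stood apart, while the other saline libraries held at most 2.62, 39.1, 183 and 39.3 CPM of them. Glp1r at 10.4 CPM, Tacr1 at 5.44 CPM, Hydin at 4.78 CPM and Foxj1, a factor of ciliated cells, at 18.6 CPM were likewise high, with at most 2.03, 2.03, 1.14 and 3.27 CPM in the others. Lss, an enzyme of cholesterol synthesis, was at 45.8 CPM and Serinc2 at 6.84 CPM, with at most 30.7 and 4.02 CPM in the others. The same library was low for Slc17a7, which loads glutamate into vesicles of cortical neurons, at 1189 CPM with 1814 to 1939 CPM in the others, and for Zbtb16 at 40.4 CPM with 55.8 to 57.6 CPM in the others.

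Saline replicate 3 was high for Gh at 9.69 CPM, with at most 0.857 CPM in the other saline libraries, and for the interferon-stimulated gene Ifit3 at 7.92 CPM, with 3.95 to 4.36 CPM in the others. Saline replicate 5 held Ins1 at 6.67 CPM and Ins2 at 23.3 CPM, and both insulin genes were at 0 counts in the other saline libraries.

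The morphine effect differed between adolescents on water and adolescents on antibiotics by the interaction in edgeR for Dusp5 (1.25 on the log2 scale), Spry4 (1.20), Klf10 (1.09), Per1 (0.75), Stk40 (0.70) and Nab2 (0.60).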

How the results depend on the processing

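Against 68 genes, the count was 69 with DESeq2 size factors in edgeR and 64 with the 35 libraries over 1000000 counts. It was 22 with DESeq2, 43 with no filter on low counts, 20 with the 34 libraries that also leave out saline replicate 1, 11 with limma-voom, 1 with the compared groups alone and 35 with a term for libraries with islet reads, which was chosen after seeing the data. Leaving out 1 library gave 3 to 239 genes. The age interaction stayed at 0 except for 1 gene in limma-voom. The interaction with antibiotics moved from 13 to 5 genes with DESeq2 and 21 with limma-voom, and to 5 to 22 without 1 library. Samples sharing a replicate number had correlations of deviations of -0.281, 0.132, -0.19, 0.033 and 0. These few values show no clear pairing by number and cannot exclude it. A replicate block gave 50, 0 and 22 genes for the 3 comparisons. Members past the threshold became 3 for clock repressors, 1 for immature neurons and 0 for striatal, glucocorticoid, AMPA, NMDA and endoplasmic reticulum chaperone genes without saline replicate 1 and in the 34 libraries, and 0 for the chaperones with DESeq2 size factors. Over the named genes, 1130 values under an alternative kept direction and side of the threshold, 291 lost significance, 33 gained it and 25 changed sign. In the 34 libraries, limma-voom and without saline replicate 1, the log2 fold change changed sign for Penk (0.26, 0.12 and 0.26), Foxj1 (0.16, 0.0035 and 0.16), Cnp (0.48, 0.15 and 0.48), Mbp (0.69, 0.27 and 0.69), Slc17a7 (-0.0872, -0.0411 and -0.0894) and Fos (-0.13, -0.27 and -0.14). It also did for mt-Nd6 in the first and last of these (-0.013 and -0.0154). Leaving out 1 library gave -1.22 to 0.26 for Penk, -1.31 to 0.16 for Foxj1, -1.04 to 0.48 for Cnp, -1.17 to 0.69 for Mbp, -0.0154 to 0.13 for mt-Nd6 and -0.0894 to 0.0718 for Slc17a7. Slc17a7 was at -0.0012 and -0.0038 without morphine replicate 1 or 2, and Fos at -0.0025, -0.13 and -0.125 without morphine replicate 3, morphine replicate 5 or saline replicate 3. None of these 7 genes passed in the fit of all libraries, and the cause of each change was not tested.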

Other observations

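Counts of Ins2, the insulin gene expressed in mice beside Ins1, were 319 in morphine replicate 3, 442 in morphine replicate 5 and 489 in saline replicate 5, and 0 to 5 in the other 7 libraries. Gcg, the glucagon gene, had 69, 54 and 114 counts in those 3 libraries and 0 to 4 in the others. Ttr had 263 counts in morphine replicate 5 and 0 to 13 in the others. Prl, the prolactin gene of the pituitary, had 15 counts in saline replicate 3, the library with 153 counts of Gh, and 0 to 3 counts in the others.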
